A study of Mus musculus with 28 samples.

Results

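The transcripts described here are those of 10 genes of adipogenesis and lipid droplets, taken by their symbols from a table of 54429 genes: Pparg, Cebpa, Cebpb, Cebpd, Fabp4, Lpl, Plin2, Hilpda, Apod and Apoe. Each symbol matched 1 gene of the table. They were read in O9-1 cells, 1 mouse line of cranial neural crest, the embryonic cells from which much of the facial skeleton and its connective tissue arise. RNA sequencing of polyadenylated RNA gave 28 libraries in 8 groups, which crossed 4 culture conditions with 21% O2 (4 libraries per group) and 0.5% O2 (3 libraries per group).

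Proliferating cells grew in STO-conditioned DMEM with 15% serum, 25 ng/ml bFGF and 5 ng/ml LIF. Chondrocyte cultures had 3 days of osteogenic medium and then 7 days as micromasses on Matrigel with 5% serum, insulin-transferrin-selenium, 0.1 µM dexamethasone, 10 ng/ml TGF-beta3 and 50 ng/ml BMP-2. Osteoblast cultures had 10 days of alpha-MEM with 10% serum, beta-glycerophosphate, 0.1 µM dexamethasone and 100 ng/ml BMP-2. Smooth muscle cultures had 3 days of DMEM with 10% serum and no added factor named. Dexamethasone and BMP-2 were thus shared by the chondrocyte and osteoblast groups at both oxygen levels and absent from the media given for the other groups. The labels do not say that the libraries of a group came from separate cultures, so the p-values below measure only the spread between these libraries.

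Adipogenesis is driven by a relay of transcription factors. C/EBP beta and C/EBP delta act early and are induced by hormonal cocktails that contain dexamethasone, and they turn on C/EBP alpha and PPAR gamma, the nuclear receptor at the centre of the fat cell programme. PPAR gamma switches on genes of fatty acid handling such as Fabp4 and Lpl. Lipid droplets, the stores of neutral fat, form in many cell types besides adipocytes and are coated by perilipins, of which perilipin 2 is the common form outside fat. Low oxygen is known to favour droplet storage through hypoxia-inducible factors (HIF), for which Hilpda is a classical target.

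Library totals lay between 19869271 and 64693346 counts. The 3 smooth muscle libraries at 0.5% O2 stood apart from the other 25. Mitochondrial ribosomal RNA took 11.6 to 13.3% of their counts against at most 0.0889% elsewhere, and their scaling factors were 0.5179 to 0.5449 against 0.8956 to 1.26. Their label was not matched by Acta2 (smooth muscle actin), which averaged 20.3 CPM (read counts scaled to 1000000 per library) there. Its mean was 3340 CPM in smooth muscle cultures at 21% O2 and 40.5 CPM in proliferating cells at 21% O2. Acta2 was also 3270 CPM in osteoblast and 1890 CPM in chondrocyte cultures at 21% O2, so it does not mark smooth muscle cultures alone. In osteoblast cultures at 21% O2 the osteoblast markers Ibsp and Alpl averaged 1.15 and 11.5 CPM, below the 1170 and 264 CPM of the chondrocyte cultures at that oxygen level. Of 6 markers of mature adipocytes (Adipoq, Plin1, Cidec, Lep, Retn and Cfd), 0 reached 1 CPM in any group, and their summed level was at most 0.358 CPM in any library. Groups are named by their culture labels below, and in these bulk libraries fewer cells of a type and less RNA per cell cannot be told apart.

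Promoter sequence was read for the members, and that of Plin2 and Hilpda is shown because these were the 2, of 7 members that could be tested in all 4 culture conditions, called higher at 0.5% O2 in each, although by library size alone Hilpda was not called in smooth muscle cultures. Of 12949 genes tested in all 4, 2.86% were higher in each and 1.6% lower in each. RefSeq windows of build GRCm38.p6, from 250 bases before to 50 bases after each start, were at hand for 7 of the 10 members, and Cebpd, Fabp4 and Lpl had none. The letters ACGTG and GCGTG, both forms of the core that HIF is known to bind, were searched on both strands. Over all 32851 windows ACGTG was present in 19.6%, GCGTG in 32.4% and either in 43.8%. The matches in the Plin2 and Hilpda windows are shown 5′ to 3′ on the strand of the gene, with the matched letters in capitals.
Plin2, ACGTG: ctgggctatcACGTGgctcggaggc
Plin2, GCGTG on the other strand: ttggggttccCACGCcctcatcccc
Hilpda, ACGTG: tggccagcggACGTGccccagggcg
Hilpda, GCGTG near the start: ggttcggtacGCGTGcgcagtctcc
Hilpda, GCGTG further upstream: accgcgagccGCGTGctttccgtga

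The Plin2 ACGTG lay at chr4:86670048-86670072 on the minus strand, centred 1 base before the start, and it read as ACGTG on the opposite strand too, in an overlapping match. The other Plin2 match lay at chr4:86670131-86670155, centred 84 bases before the start. Hilpda had 2 annotated starts, and its ACGTG (chr6:29272573-29272597, plus strand) was centred 41 bases before the downstream one. Its GCGTG matches at chr6:29272608-29272632 and chr6:29272505-29272529 were centred 6 and 109 bases before the same start. The latter match was centred 29 bases after the upstream start. Plin2 and Hilpda were the only members with ACGTG among the 7 read. GCGTG was also present in the windows of Pparg and Cebpb, and neither was found in those of Cebpa, Apod and Apoe. A match says only that these letters are in the window.

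Levels are given as CPM after scaling of the 28 libraries by the trimmed mean of M values (TMM). A gene was called in a comparison when the edgeR quasi-likelihood test, adjusted over all genes tested, gave p under 0.05. The 4 oxygen comparisons and the 6 comparisons with proliferating cells share groups with each other, so their values are set side by side and not combined.

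With 0.5% against 21% O2 in proliferating cells, 7 members had enough counts to be tested, of which 4 were called higher and 1 lower. Among all 14156 genes tested 33.1% were higher and 32.3% lower. In chondrocyte cultures 2 of 10 were higher and 3 lower, against 10.4% and 11.8% of 14205 genes. In osteoblast cultures 6 of 10 were higher and 3 lower, against 27.0% and 27.3% of 14533 genes. Smooth muscle cultures had 5 of 10 higher and 4 lower, against 35.4% and 40.2% of 14914 genes. The median log2 fold change of the tested members was 0.65, -0.47, 1.10 and 0.61 in that order, beside 0.01, -0.01, -0.03 and -0.12 for all genes.

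These splits depend on the scaling. By library size alone the share of called genes that were higher moved from 46.9 to 31.8% in chondrocyte, from 49.6 to 36.9% in osteoblast and from 46.8 to 15.6% in smooth muscle cultures. The median of all genes in the smooth muscle comparison was then -1.49. In the 4 oxygen comparisons that scaling ended 1 call among the members, that of Hilpda in smooth muscle cultures (log2 fold change 0.18). It added Pparg there (-1.70) and Cebpb in chondrocyte cultures as lower. With the mitochondrial genes left out as well, Hilpda in smooth muscle cultures stood at 0.38.

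**Figure D1:**
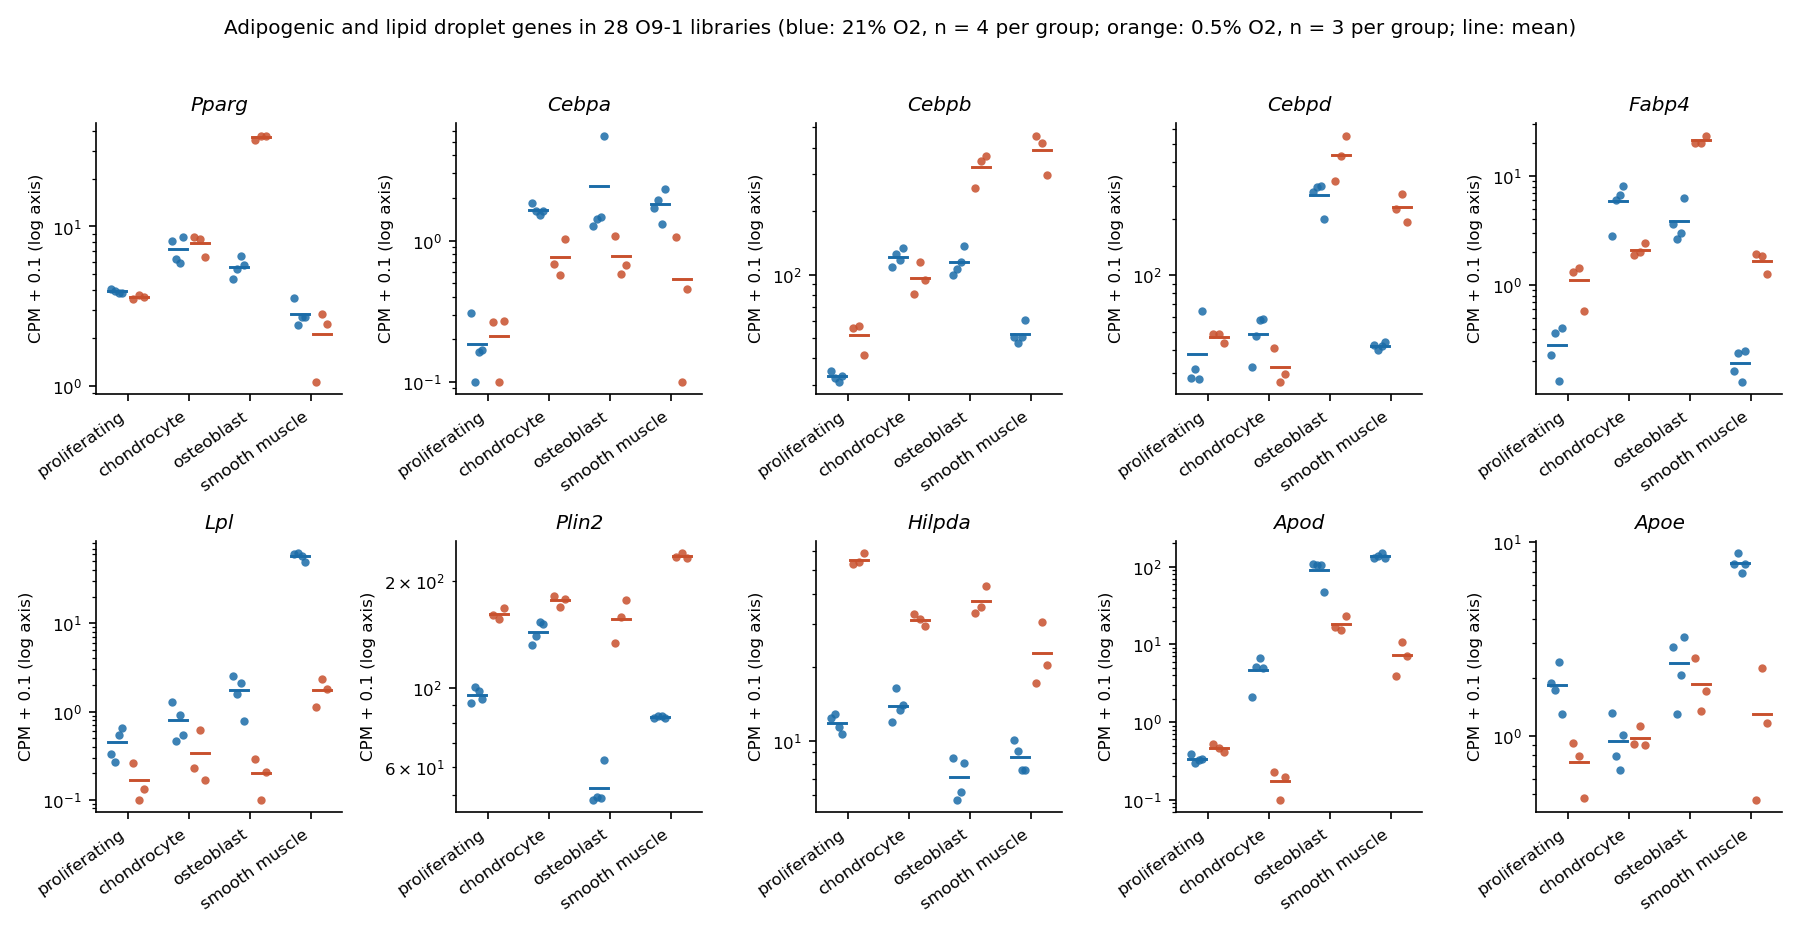
TMM-scaled level of each of the 10 genes in every library, in CPM plus 0.1 on a log axis, by culture condition. Blue points are libraries at 21% O2, orange points are libraries at 0.5% O2, and the short line is the group mean. Plin2 and Hilpda were higher at 0.5% O2 in every condition, although by library size alone Hilpda in smooth muscle cultures was no longer called. Lpl and Apod were highest in smooth muscle cultures at 21% O2.

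**Figure D2:**
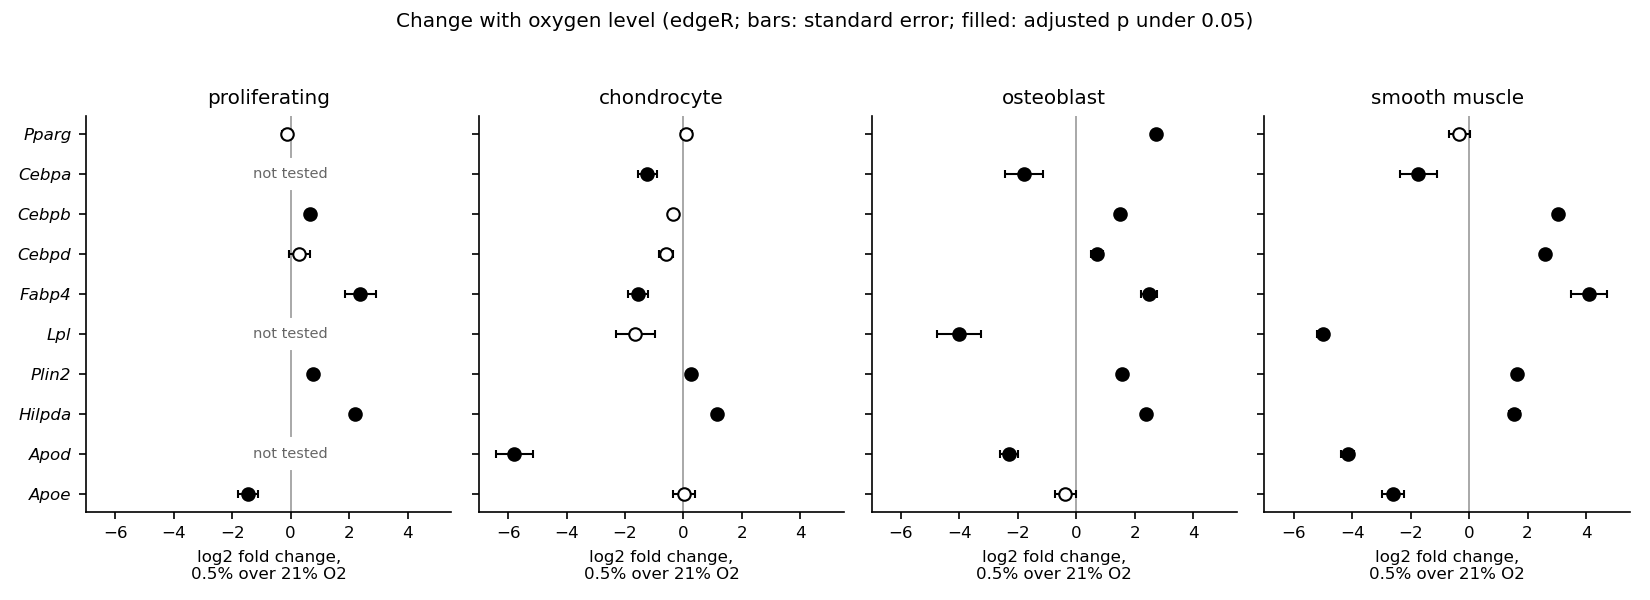
Log2 fold change (0.5% over 21% O2) with its SE for each member in the 4 culture conditions, from edgeR with TMM scaling. Filled points were called at an adjusted p under 0.05, and genes with too few counts are marked as not tested. Scaling by library size alone lowers the smooth muscle values by about the shift of the median gene, and Hilpda is then not called.

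Pparg encodes PPAR gamma (chr6:115360951-115490399, plus strand, mm10). It was low in most groups and rose in osteoblast cultures at 0.5% O2. The libraries there gave 34.8, 37.2 and 37.0 CPM, whereas the osteoblast libraries at 21% O2 gave 4.56, 5.31, 6.38 and 5.62 CPM. The groups did not overlap, and the hypoxic group was above every library of the other 7 groups. The difference was 6.65-fold, with a log2 fold change of 2.74 ± 0.12 (SE) and an edgeR quasi-likelihood adjusted p of 4.21e-07. Without the fourth osteoblast library at 21% O2, which differed from its group in several members, the log2 fold change was 2.75.

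In the other 3 conditions Pparg was not called between oxygen levels. Proliferating cells held 3.96, 3.84, 3.74 and 3.70 CPM at 21% O2 and 3.39, 3.60 and 3.48 CPM at 0.5% O2. Chondrocyte cultures held 8.06, 6.19, 5.77 and 8.48 CPM at 21% O2 and 8.53, 8.29 and 6.34 CPM at 0.5% O2. The chondrocyte libraries overlapped between the oxygen levels, and the proliferating ones were close but apart, with a log2 fold change of -0.13 ± 0.15. Pparg in smooth muscle cultures was 3.45, 2.31, 2.59 and 2.59 CPM at 21% O2 and 0.953, 2.72 and 2.33 CPM at 0.5% O2. That log2 fold change was -0.33 ± 0.37, and it was 0.01 without the first hypoxic library and -1.70 by library size alone.

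Against proliferating cells at the same oxygen level, Pparg rose 1.87-fold in chondrocyte and 1.44-fold in osteoblast cultures at 21% O2. It fell in smooth muscle cultures, where it was 1.4-fold lower. At 0.5% O2 the rise was 2.21-fold in chondrocyte and 10.4-fold in osteoblast cultures. The difference between the osteoblast changes at the 2 oxygen levels was 2.91 ± 0.16 on the log2 scale (edgeR interaction term, adjusted p = 1.39e-09). Pparg overlaps the antisense gene Gm44079 over 13176 bases, and whether strand was used in counting is not given in the sources used here.

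Cebpa encodes C/EBP alpha, the partner of PPAR gamma in the late programme (chr7:35119293-35121928, plus strand). It was low in every group, with a mean of at most 2.32 CPM, and rested on few counts in proliferating cells. Proliferating cells at 21% O2 gave 0.207, 0, 0.0639 and 0.0686 CPM, a total of 12 counts. The library at 0 allows up to 0.0392 CPM. The levels in chondrocyte cultures at 21% O2 were 1.74, 1.53, 1.41 and 1.53 CPM, and in smooth muscle cultures at 21% O2 they were 1.60, 1.84, 1.22 and 2.23 CPM. Osteoblast cultures at 21% O2 gave 1.17, 1.32, 1.37 and 5.43 CPM, so that 1 library carried most of the group's mean.

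Each of these 3 groups was above proliferating cells at 21% O2 in every library. The log2 fold changes were 4.37 ± 0.61 in chondrocyte, 4.91 ± 0.89 in osteoblast and 4.47 ± 0.57 in smooth muscle cultures (edgeR quasi-likelihood, adjusted p = 3.36e-05, 0.000618 and 2.92e-06). Their size rested on the few proliferating counts. Leaving out the first proliferating library gave 5.51, 6.05 and 5.62, leaving out the second gave 3.68, 4.23 and 3.76, and without the fourth osteoblast library the osteoblast value was 4.03.

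At 0.5% O2 Cebpa was 0.584, 0.471 and 0.929 CPM in chondrocyte, 0.972, 0.483 and 0.571 CPM in osteoblast, and 0.953, 0 and 0.358 CPM in smooth muscle cultures. Every one of these libraries was below all 21% O2 libraries of its condition. The log2 fold changes were -1.24 ± 0.33, -1.79 ± 0.64 and -1.74 ± 0.64 in that order (edgeR quasi-likelihood, adjusted p = 0.0205, 0.0406 and 0.0228). All 3 calls were fragile. The chondrocyte call was lost without the first or the second hypoxic library (-1.14 and -1.05), the osteoblast call without any 1 of the 3 hypoxic libraries, and the smooth muscle call without the third hypoxic or the fourth normoxic library. Without the fourth normoxic osteoblast library the osteoblast value was -0.93, and without the first hypoxic smooth muscle library the smooth muscle value was -3.06. Over all alternatives, other scalings among them, the smooth muscle value ran from -3.08 to -1.23. Over the alternatives the adjusted p ran from 0.00517 to 0.188 in chondrocyte, 0.00745 to 0.129 in osteoblast and 0.000387 to 0.0733 in smooth muscle cultures. Proliferating cells at 0.5% O2 held 0.164, 0 and 0.172 CPM and could not be tested against 21% O2.

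Cebpb encodes C/EBP beta, an early inducer (chr2:167688915-167690418, plus strand). It rose at 0.5% O2 in 3 of the 4 conditions. In smooth muscle cultures it went from 50.7, 47.2, 50.3 and 60.6 CPM at 21% O2 to 457, 419 and 297 CPM at 0.5% O2. In osteoblast cultures it went from 99.2, 106, 115 and 137 CPM to 258, 345 and 366 CPM. Proliferating cells held 34.8, 32.3, 30.8 and 33.0 CPM at 21% O2 and 55.9, 57.1 and 41.5 CPM at 0.5% O2. In each of these conditions all hypoxic libraries were above all normoxic ones. The rises were 7.49-fold, 2.83-fold and 1.57-fold in that order, with log2 fold changes of 3.04 ± 0.13, 1.5 ± 0.15 and 0.65 ± 0.10 (edgeR quasi-likelihood, adjusted p = 1.32e-11, 3.68e-05 and 8.74e-05). The smooth muscle value was 1.68 by library size alone.

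Chondrocyte cultures differed from the other 3 conditions in Cebpb. They held 108, 125, 117 and 134 CPM at 21% O2 and 80.6, 115 and 94.0 CPM at 0.5% O2, with overlap. The log2 fold change of -0.34 ± 0.12 was not called, although it passed without the first normoxic or the second hypoxic library. It was also called as lower by library size alone and under the replicate block, and the adjusted p over the alternatives ran from 0.00987 to 0.189. Against proliferating cells Cebpb was higher in all 6 comparisons. The rises at 21% O2 were 3.70-fold in chondrocyte, 3.49-fold in osteoblast and 1.60-fold in smooth muscle cultures, and at 0.5% O2 they were 1.87-fold, 6.27-fold and 7.59-fold. On the log2 scale the last was 3.10, and 1.82 by library size alone. The interaction was called in each lineage, at -0.98 ± 0.18, 0.90 ± 0.19 and 2.44 ± 0.18 (edgeR, adjusted p = 0.000388, 0.00105 and 7.75e-10). The last was 1.10 by library size alone.

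Cebpd encodes C/EBP delta, the other early inducer (chr16:15887286-15891031, plus strand). It was high in osteoblast cultures at both oxygen levels and in smooth muscle cultures at 0.5% O2. Osteoblast libraries gave 277, 295, 298 and 199 CPM at 21% O2 and 318, 433 and 554 CPM at 0.5% O2. Smooth muscle libraries gave 42.5, 39.7, 41.8 and 43.9 CPM at 21% O2 and 224, 272 and 192 CPM at 0.5% O2. In both conditions the hypoxic libraries were all above the normoxic ones. The rise was 1.63-fold in osteoblast cultures (log2 fold change 0.71 ± 0.20) and 5.45-fold in smooth muscle cultures (2.59 ± 0.10), with edgeR quasi-likelihood adjusted p of 0.014 and 8.8e-12. The osteoblast call was lost without the third hypoxic library (0.51), over alternatives whose adjusted p ran from 0.000443 to 0.0638. Library size alone gave 1.22 in smooth muscle cultures.

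One proliferating library at 21% O2 stood apart in Cebpd. The 4 libraries gave 28.3, 31.5, 28 and 64.6 CPM, beside 48.4, 48.6 and 43.4 CPM at 0.5% O2. The fourth library was above all 3 hypoxic ones and the other 3 were below them. The log2 fold change of 0.30 ± 0.35 was not called with it and was 0.65 and called without it, with an adjusted p between 5.62e-12 and 0.702 over the alternatives. Chondrocyte cultures held 32.2, 47.2, 57.5 and 58.0 CPM at 21% O2 and 40.7, 26.9 and 29.8 CPM at 0.5% O2, overlapping and not called (-0.60 ± 0.23), though the value passed without the first normoxic library. Against proliferating cells the osteoblast rise was 7.01-fold at 21% O2 and 9.29-fold at 0.5% O2, and the interaction for smooth muscle cultures was 2.33 ± 0.36 (edgeR, adjusted p = 0.000113). That interaction was 0.99, still called, by library size alone. At 21% O2 the chondrocyte and smooth muscle values against proliferating cells were 0.39 ± 0.32 and 0.12 ± 0.29, and they were 0.76 and 0.47 and called without the fourth proliferating library. At 0.5% O2 Cebpd was 1.44-fold lower in chondrocyte cultures than in proliferating cells, a call lost when all 28 libraries shared 1 fit.

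Cebpa, Cebpb and Cebpd each overlap a gene on the opposite strand, namely Gm45091 over 313 bases, Tmem189 over 908 bases and Spidr over 1808 bases. Reads from those genes could be counted with them if strand was not used.

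Fabp4 encodes a fatty acid binding protein that is abundant in fat cells and is a target of PPAR gamma (chr3:10204088-10208576, minus strand). It reached its highest level in the same group as Pparg. Osteoblast libraries gave 3.50, 2.56, 2.91 and 6.17 CPM at 21% O2 and 20.1, 20 and 23.4 CPM at 0.5% O2. All hypoxic libraries were above all normoxic ones, and above every library of the other groups. The rise was 5.59-fold, with a log2 fold change of 2.48 ± 0.27 (edgeR quasi-likelihood, adjusted p = 8.97e-05). The value was 2.82 without the fourth normoxic library.

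Fabp4 moved in opposite directions elsewhere. In chondrocyte cultures it was 2.71, 5.91, 6.65 and 8.08 CPM at 21% O2 and 1.78, 1.93 and 2.32 CPM at 0.5% O2, a 2.91-fold fall (-1.55 ± 0.33, edgeR adjusted p = 0.00769). Smooth muscle cultures rose from 0.0627, 0.137, 0.0297 and 0.151 CPM to 1.83, 1.75 and 1.16 CPM, from a total of 13 counts in 4 libraries. Proliferating cells rose from 0.129, 0.261, 0.0319 and 0.309 CPM to 1.22, 1.35 and 0.483 CPM. Groups did not overlap in any of these 3 conditions, but the levels under 1 CPM rest on few counts. The log2 fold changes were 4.11 ± 0.62 in smooth muscle cultures and 2.39 ± 0.53 in proliferating cells (edgeR quasi-likelihood, adjusted p = 2.56e-05 and 0.00121). Scaled by library size alone, the smooth muscle value was 2.77.

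Against proliferating cells Fabp4 rose 31.9-fold in chondrocyte and 20.7-fold in osteoblast cultures at 21% O2. At 0.5% O2 the rises were 1.97-fold and 20.8-fold. The chondrocyte change therefore differed between the oxygen levels, by -3.91 ± 0.64 on the log2 scale (edgeR interaction, adjusted p = 0.000101), whereas the osteoblast difference of 0.16 ± 0.71 was not called. The chondrocyte call at 0.5% O2 was lost without the third hypoxic proliferating library (0.65) or the third hypoxic chondrocyte library (0.88).

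Macrophages also express Fabp4, Plin2, Lpl and Apoe, so their markers were read beside these genes. Of 8 macrophage markers, Tyrobp and C1qa had 0 counts in every group. The summed level of the 8 was 36.5 to 41.8 CPM in the smooth muscle libraries at 0.5% O2, most of it Cd68 at 34.0 CPM, against 3.68 to 4.10 CPM in those at 21% O2. In the 2 osteoblast groups, at 21% and 0.5% O2, the sum was 3.51 to 4.74 and 3.34 to 4.89 CPM. It was 10.1 to 12.9 and 14.1 to 15.5 CPM in proliferating cells, and 2.69 to 3.73 and 3.7 to 4.91 CPM in chondrocyte cultures. Cd68 alone averaged 0.262 and 1.59 CPM in osteoblast, 1.96 and 5.22 CPM in proliferating, and 0.51 and 0.473 CPM in chondrocyte groups. The part of these markers in the results was not tested.

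Lpl encodes lipoprotein lipase, which frees fatty acids from circulating triglyceride (chr8:68880491-68907448, plus strand). It was a transcript of smooth muscle cultures at 21% O2, where the libraries gave 60.3, 61.5, 57.9 and 48.7 CPM. At 0.5% O2 they gave 1.03, 2.24 and 1.70 CPM, far below. The fall was 34.6-fold, with a log2 fold change of -5.01 ± 0.20 (edgeR quasi-likelihood, adjusted p = 6.99e-12), and it was -6.38 by library size alone. Every other group had a mean of at most 1.65 CPM.

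In osteoblast cultures Lpl went from 2.40, 1.48, 2.02 and 0.682 CPM at 21% O2 to 0.194, 0 and 0.107 CPM at 0.5% O2. The hypoxic libraries held 5, 0 and 3 counts, and the one at 0 allows up to 0.104 CPM. The fall was 16.5-fold (log2 fold change -4.01 ± 0.74, edgeR adjusted p = 0.00159), and it was -4.84 without the first and -3.41 without the second hypoxic library. Chondrocyte libraries gave 1.18, 0.362, 0.809 and 0.437 CPM at 21% O2 and 0.130, 0.511 and 0.0663 CPM at 0.5% O2. These overlapped, and the value of -1.64 ± 0.68 was called only without the second hypoxic library (-2.81), over an adjusted p of 0.0318 to 0.311 among the alternatives.

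Against proliferating cells Lpl rose 163-fold in smooth muscle and 4.71-fold in osteoblast cultures at 21% O2. Proliferating libraries gave 0.233, 0.170, 0.447 and 0.548 CPM at 21% O2 and 0.164, 0 and 0.0345 CPM at 0.5% O2. At 0.5% O2 the smooth muscle rise was 24.9-fold (4.64 ± 0.86), and it was 6.21 on the log2 scale without the first hypoxic proliferating library and 3.39 by library size alone. The difference between the smooth muscle changes at the 2 oxygen levels was -2.89 ± 1.10 (edgeR interaction, adjusted p = 0.0244). Without that same proliferating library it was -1.16 and not called.

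Plin2 encodes perilipin 2, the coat protein of lipid droplets in most cells (chr4:86648386-86670060, minus strand). It rose at 0.5% O2 in all 4 conditions. Smooth muscle cultures went from 82.3, 83.4, 83.4 and 82.5 CPM to 234, 239 and 232 CPM. Osteoblast cultures went from 48.5, 49.3, 49.2 and 62.8 CPM to 134, 158 and 177 CPM. Proliferating cells went from 90.8, 101, 98.2 and 93.0 CPM to 160, 156 and 168 CPM. The smallest change was in chondrocyte cultures, from 132, 140, 153 and 151 CPM to 182, 169 and 178 CPM. The hypoxic libraries were above the normoxic ones without overlap in each condition.

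The rises of Plin2 were 2.83-fold, 2.99-fold, 1.69-fold and 1.22-fold in that order. As log2 fold changes they were 1.64 ± 0.07, 1.58 ± 0.13, 0.75 ± 0.05 and 0.27 ± 0.07 (edgeR quasi-likelihood, adjusted p = 1.54e-11, 1.07e-05, 1.56e-08 and 0.0134). The smooth muscle value was 0.27 by library size alone and 0.48 with the mitochondrial genes also left out, and both were called. The chondrocyte call was lost without the third hypoxic chondrocyte library, over alternatives with an adjusted p of 0.00374 to 0.0564. Without the fourth normoxic osteoblast library the osteoblast value was 1.68.

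At 21% O2 Plin2 rose 1.5-fold from proliferating to chondrocyte cultures and fell in the others, being 1.82-fold lower in osteoblast and 1.15-fold lower in smooth muscle cultures. At 0.5% O2 the smooth muscle value was 0.72 ± 0.07 and turned to -0.56 by library size alone, so its direction depends on the scaling. The osteoblast value at 0.5% O2 was -0.04 ± 0.09, not called, and it was -0.28 and called by library size alone. The interactions were -0.46 ± 0.09 for chondrocyte and 0.88 ± 0.14 for osteoblast cultures (edgeR, adjusted p = 0.000396 and 8.61e-05). For smooth muscle cultures it was 0.94 ± 0.08, and -0.40 by library size alone.

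Hilpda encodes a small lipid droplet protein that blocks the triglyceride lipase ATGL (chr6:29272488-29275446, plus strand). It also rose at 0.5% O2 in all 4 conditions as scaled by TMM, though in smooth muscle cultures not by library size alone. Proliferating cells went from 12.3, 12.8, 11.3 and 10.6 CPM to 52.6, 53.8 and 58.3 CPM. In osteoblast cultures it went from 8.37, 5.63, 6.07 and 8.02 CPM to 33.2, 35.3 and 42.8 CPM. Chondrocyte cultures went from 11.8, 16.4, 13.2 and 13.9 CPM to 32.9, 31.3 and 29.3 CPM. All libraries at 0.5% O2 lay above those at 21% O2 within each of these conditions. The same held in smooth muscle cultures, which went from 10.0, 8.98, 7.46 and 7.47 CPM to 17.2, 30.5 and 20.3 CPM.

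The rises of Hilpda were 4.69-fold in proliferating, 5.28-fold in osteoblast, 2.26-fold in chondrocyte and 2.68-fold in smooth muscle cultures. The log2 fold changes were 2.21 ± 0.08, 2.40 ± 0.16, 1.16 ± 0.11 and 1.55 ± 0.19 (edgeR quasi-likelihood, adjusted p = 2.59e-11, 4.1e-06, 4.44e-05 and 3.14e-06). The 4 hypoxic groups came first in the order of its levels, with proliferating cells at the top, and they did not overlap any normoxic group. That order depends on the scaling. With levels scaled by library size alone, smooth muscle cultures at 0.5% O2 averaged 12 CPM of Hilpda, below proliferating cells (14.2 CPM) and chondrocyte cultures (13.4 CPM) at 21% O2 and overlapping both. The level at 0.5% O2 was lower in each differentiated group than in proliferating cells, by 1.76-fold in chondrocyte, 1.48-fold in osteoblast and 2.42-fold in smooth muscle cultures, the last with a log2 fold change of -1.11 that was -2.39 by library size alone. The interaction was -1.05 ± 0.14 for chondrocyte and -0.63 ± 0.21 for smooth muscle cultures (edgeR, adjusted p = 1.22e-05 and 0.011), and the latter was -1.97 by library size alone. For osteoblast cultures it was 0.23 ± 0.19 and not called.

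Apod encodes apolipoprotein D, a secreted carrier of small lipids of the lipocalin family (chr16:31296192-31314808, minus strand). Its group means ran from 136 CPM in smooth muscle cultures at 21% O2 to 0.0764 CPM, a total of 7 counts, in chondrocyte cultures at 0.5% O2. At 21% O2 smooth muscle cultures held 131, 136, 148 and 128 CPM, and osteoblast cultures held 107, 104, 106 and 47.7 CPM. At 0.5% O2 the former held 3.81, 10.6 and 6.98 CPM and the latter 16.5, 15.4 and 23.0 CPM. Both hypoxic groups lay below their normoxic counterparts in every library. The falls were 19.1-fold (-4.15 ± 0.23) and 4.99-fold (-2.31 ± 0.31), with edgeR quasi-likelihood adjusted p of 3.2e-09 and 0.000495. The osteoblast value was -2.53 without the fourth normoxic library, and the smooth muscle value was -5.52 by library size alone.

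In chondrocyte cultures Apod was 2.02, 5.06, 6.51 and 4.88 CPM at 21% O2 and 0.130, 0 and 0.0995 CPM at 0.5% O2. The hypoxic libraries held 4, 0 and 3 counts, and the one at 0 allows up to 0.118 CPM. The log2 fold change was -5.78 ± 0.62 (edgeR quasi-likelihood, adjusted p = 0.000141), a 60.5-fold ratio of the means that rests on those 7 counts. Proliferating cells held 0.285, 0.196, 0.224 and 0.240 CPM at 21% O2 and 0.427, 0.364 and 0.310 CPM at 0.5% O2. They were too low to be tested for oxygen.

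From proliferating cells at 21% O2 Apod rose 19.6-fold in chondrocyte, 387-fold in osteoblast and 576-fold in smooth muscle cultures. At 0.5% O2 the rise was 49.9-fold in osteoblast and 19.4-fold in smooth muscle cultures, the last with a log2 fold change of 4.42 that was 3.14 by library size alone. The oxygen levels differed in each lineage, with interaction values of -6.44 ± 0.76, -2.94 ± 0.67 and -4.79 ± 0.60 (edgeR, adjusted p = 2.54e-06, 0.00221 and 5.43e-07).

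Apoe encodes apolipoprotein E, which carries cholesterol and fats to lipoprotein receptors (chr7:19696109-19699188, minus strand). It was low throughout, with its highest level in smooth muscle cultures at 21% O2 at 7.58, 8.65, 6.80 and 7.62 CPM. At 0.5% O2 these held 0.367, 2.14 and 1.07 CPM, all below. The fall was 6.44-fold (-2.60 ± 0.38, edgeR quasi-likelihood adjusted p = 1.64e-05), and it was -3.34 without the second hypoxic library and -3.98 by library size alone. Proliferating cells went from 1.78, 1.62, 2.30 and 1.20 CPM to 0.822, 0.691 and 0.379 CPM, a 2.74-fold fall (-1.45 ± 0.34, edgeR adjusted p = 0.0018) without overlap.

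Chondrocyte and osteoblast cultures overlapped between oxygen levels in Apoe. The former held 1.21, 0.683, 0.563 and 0.910 CPM at 21% O2 and 0.810, 1.02 and 0.796 CPM at 0.5% O2 (0.03 ± 0.38). The latter held 2.76, 1.20, 1.95 and 3.15 CPM at 21% O2 and 2.41, 1.24 and 1.61 CPM at 0.5% O2 (-0.37 ± 0.37). Neither was called. Against proliferating cells Apoe rose 4.43-fold in smooth muscle cultures at 21% O2 and 2.77-fold in osteoblast cultures at 0.5% O2. It was 2.05-fold lower in chondrocyte cultures at 21% O2, a call whose libraries overlapped those of proliferating cells. The interaction for chondrocyte cultures was 1.49 ± 0.50 (edgeR, adjusted p = 0.0211), and it was not called without the third hypoxic proliferating or the second hypoxic chondrocyte library.

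Counted over the lineage comparisons at 21% O2, 6 of the 10 members rose and 1 fell in chondrocyte cultures, against 37.7% and 37.2% of 14360 genes. In osteoblast cultures 7 rose and 2 fell, against 40.9% and 37.8% of 14434 genes. Of 9 tested in smooth muscle cultures 5 rose and 3 fell, against 40.8% and 38.9% of 14582 genes. The median log2 fold change of the members was 1.03, 2.04 and 0.64, beside 0.00, 0.07 and 0.03 for all genes.

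At 0.5% O2, 4 of 8 tested members rose and 2 fell in chondrocyte cultures, against 34.9% and 34.6% of 14347 genes. In osteoblast cultures 7 of 9 rose and 1 fell, against 36.2% and 35.1% of 14338 genes. Of 9 in smooth muscle cultures 5 rose and 1 fell, against 33.8% and 36.2% of 14080 genes. The member medians were 0.69, 2.65 and 1.06, beside -0.02, 0.00 and -0.07. By library size alone the share of calls that were higher moved from 50.3 to 34.7% in chondrocyte cultures at 21% O2. At 0.5% O2 it moved from 50.2 to 31.8% in chondrocyte, 50.8 to 38.2% in osteoblast and 48.3 to 15.0% in smooth muscle cultures. The medians of all genes in these 4 comparisons were then -0.35, -0.35, -0.23 and -1.35.

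The interaction terms were called for 1 member upward and 5 downward in chondrocyte cultures, against 21.6% and 21.9% of 15310 genes. In osteoblast cultures 3 were higher and 1 lower, against 28.9% and 25.3% of 15486 genes. Smooth muscle cultures had 3 higher and 3 lower, against 34.9% and 35.5% of 15640 genes. For the last, library size alone moved the higher share of calls from 49.6 to 16.6% and turned Plin2 from 0.94 to -0.40. The number of members called was then 9 in place of 6, and it was 8 with no filter. For Pparg the term was called in osteoblast cultures, and its chondrocyte and smooth muscle values, not called, were 0.24 ± 0.22 and -0.17 ± 0.38. Over the alternatives that smooth muscle value ran from -1.50 to 0.20, with an adjusted p of 0.000842 to 0.947, so whether it was called depends on the processing.

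**Figure D3:**
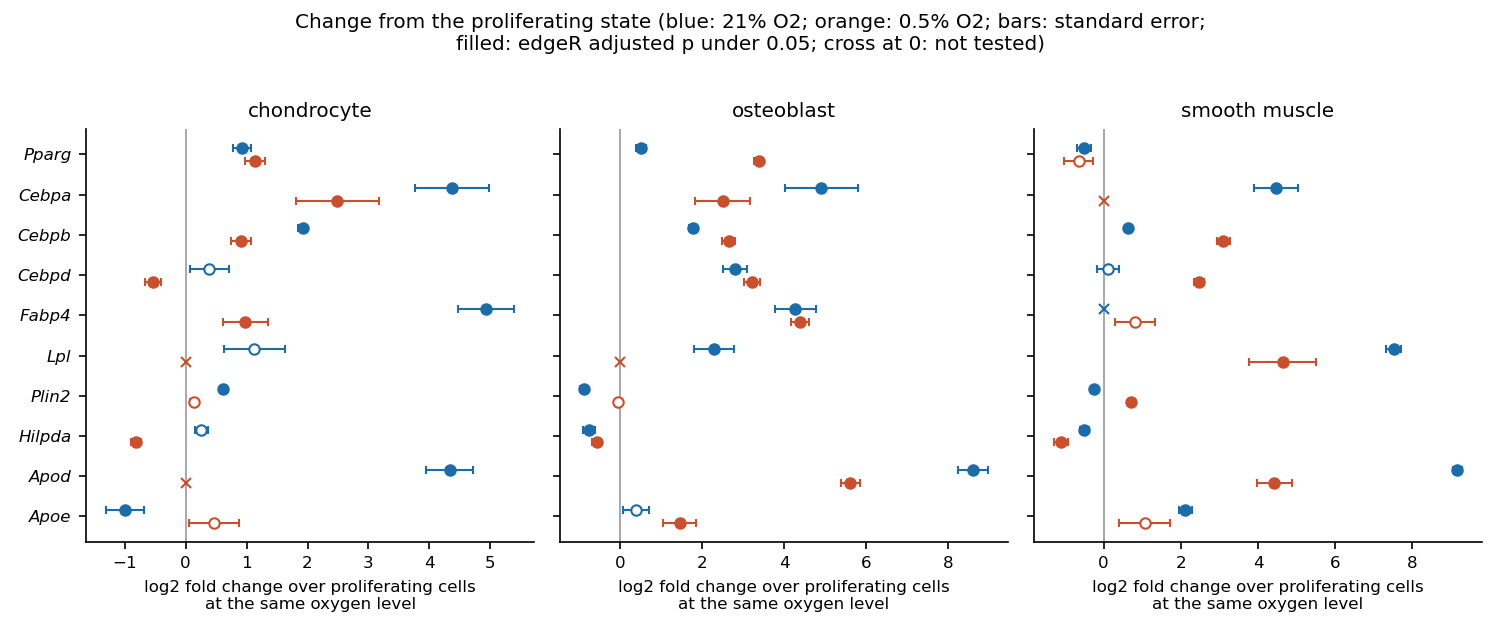
Log2 fold change from proliferating cells with its SE for each member in chondrocyte, osteoblast and smooth muscle cultures, at 21% O2 (blue) and 0.5% O2 (orange). A cross at 0 marks a gene with too few counts to be tested. Apod and Lpl rose most in smooth muscle cultures at 21% O2, and Pparg rose 10.4-fold in osteoblast cultures at 0.5% O2. By library size alone Plin2 in smooth muscle cultures at 0.5% O2 turns from 0.72 to -0.56.

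Per kilobase of its main transcript, which allows levels of different genes to be compared, Plin2 led the 10 in proliferating cells at 21% O2 with 50.7 CPM per kb. Cebpb followed with 21.8, Hilpda with 11.9 and Cebpd with 10.2 CPM per kb, and Pparg stood at 2.16 CPM per kb. In osteoblast cultures at 0.5% O2 the order was Cebpb at 215, Cebpd at 116, Plin2 at 82.9, Hilpda at 37.8, Fabp4 at 23.6 and Pparg at 20.6 CPM per kb. In smooth muscle cultures at 21% O2 Apod stood at 65.5, above Plin2 at 43.9, while Lpl stood at 13.9 and Apoe at 5.44 CPM per kb.

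The order of the group means differed between the members. For Pparg, Fabp4 and Cebpd osteoblast cultures at 0.5% O2 came first and did not overlap the next group, except that for Cebpd they overlapped osteoblast cultures at 21% O2 when scaled by library size alone. For Lpl, Apod and Apoe smooth muscle cultures at 21% O2 came first, likewise without overlap. Cebpb was highest in smooth muscle cultures at 0.5% O2 (391 CPM), which overlapped osteoblast cultures at 0.5% O2 (323 CPM), and the order turned to 208 and 315 CPM by library size alone. Plin2 ran from 52.5 CPM in osteoblast cultures at 21% O2 to 235 CPM in smooth muscle cultures at 0.5% O2. Scaled by library size alone that last group stood at 125 CPM of Plin2, below chondrocyte cultures at 21% O2 (140 CPM), and proliferating cells at 0.5% O2 came first (185 CPM).

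Across the 8 group means of log2(CPM + 1), as a description of points that share libraries and medium, the highest correlations between members were Lpl with Apoe (Pearson r = 0.91), Pparg with Fabp4 (0.87) and Cebpa with Apod (0.80). Cebpb with Cebpd stood at 0.79 and Plin2 with Hilpda at 0.78. The lowest was Cebpa with Hilpda, at -0.67. Among 11044 genes ranked over the same 8 means, those most like Pparg were Vwce (0.987), Phlpp1 (0.985) and Lctl (0.985). Those most like Hilpda were Pdk1 (0.985), a kinase of pyruvate dehydrogenase, Tpi-rs11 (0.971), which is related in sequence to the glycolytic gene Tpi1 and so uncertain in its counts, and Gys1 (0.97), glycogen synthase. Among those most like Plin2 were Znhit1 (0.940) and Pcgf5 (0.940), and those most like Cebpb were Ptges3l (0.977), Klhl15 (0.975) and Poldip3 (0.97). Dele1 (0.941) and C3 (0.935) were among those most like Cebpd, Meis3 (0.984), Thbs3 (0.977) and Fbln5 (0.974) most like Cebpa, and Car5b (0.943), Slc36a2 (0.941) and Mcl1 (0.940) most like Fabp4. Trpm5 (0.983), Olfml2a (0.972) and Slc2a12 (0.968) were most like Lpl, Epb41l4b (0.978), Gstt1 (0.975) and Plscr4 (0.972) most like Apod, and Cmtm3 (0.972), Rab27a (0.959) and Ube2e3 (0.951) most like Apoe. With 8 points many genes reach such values.

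The members were then set beside 98 other genes of the same pathways, sorted by role. At 0.5% against 21% O2, 39 of 64 tested rose and 15 fell in proliferating cells. In chondrocyte cultures 17 of 68 rose and 17 fell, in osteoblast cultures 26 of 73 rose and 19 fell, and in smooth muscle cultures 24 of 72 rose and 34 fell. Without the third hypoxic chondrocyte library 22 pathway genes were called in that condition instead of 34, and 2091 genes of all tested instead of 3157. Among all genes 33.1% were higher and 32.3% lower in proliferating cells, 10.4% and 11.8% in chondrocyte, 27.0% and 27.3% in osteoblast, and 35.4% and 40.2% in smooth muscle cultures, and these shares are the background of the role groups too. The median log2 fold changes of the pathway genes in the 4 conditions were 0.45, -0.01, 0.11 and -0.10, beside the medians of all genes given above. Library size alone gave 11 higher and 21 lower in chondrocyte, 20 higher and 23 lower in osteoblast (median -0.04), and 5 higher and 55 lower in smooth muscle cultures. For the pathway genes named by the rule and tested there, the smooth muscle value by library size alone lay lower by roughly the shift of the median gene, from -0.12 to -1.49.

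Among 18 adipogenic transcription factors and cofactors, 9 of 12 tested rose and 3 fell in proliferating cells, 0 of 13 rose and 4 fell in chondrocyte, 5 of 17 rose and 3 fell in osteoblast, and 4 of 15 rose and 7 fell in smooth muscle cultures. The last split was 0 higher and 13 lower by library size alone. Klf5, a factor that acts upstream of Pparg, rose in osteoblast cultures with Pparg (log2 fold change 2.23 ± 0.16, edgeR adjusted p = 5.63e-06) and in proliferating cells (1.12 ± 0.08, edgeR adjusted p = 3.17e-08). It was 1.04 ± 0.12 in smooth muscle cultures by TMM and -0.33 by library size alone. Ebf1, an early B cell factor that promotes adipogenesis, rose in osteoblast cultures (2.06 ± 0.25) and fell in smooth muscle cultures (-4.09 ± 0.59). Ebf2, which marks brown fat precursors, rose in proliferating cells (3.60 ± 0.20). Prdm16, a brown fat regulator, fell there (-0.98 ± 0.11), in chondrocyte cultures (-0.81) and most in smooth muscle cultures (-2.85, and -4.22 by library size alone). In osteoblast cultures Prdm16 was not called (-0.46), though it was in 5 of 15 alternatives.

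Of 13 inhibitors of adipogenesis, 7 of 11 tested rose in proliferating cells and 4 fell. In chondrocyte cultures 5 of 12 rose and 2 fell, in osteoblast cultures 4 of 11 rose and 2 fell, and in smooth muscle cultures 4 of 12 rose and 6 fell (1 and 8 by library size alone, which also gave 2 and 2 in osteoblast cultures). Trib3, a pseudokinase of the stress response, rose in proliferating cells by 2.93 ± 0.30. Hes1, the Notch target, fell in osteoblast cultures (log2 fold change -1.65) and was higher in smooth muscle cultures (1.88 ± 0.39), where it was 0.53 and not called by library size alone. Trib2 rose in proliferating cells (0.33 ± 0.08) and fell in the other 3 conditions, most in smooth muscle cultures (log2 fold change -2.14). Klf2, which represses Pparg, rose in proliferating cells (2.02 ± 0.19) and fell in smooth muscle cultures (-1.68 ± 0.18). Of 13 products of mature adipocytes at most 2 could be tested in any of the 4 comparisons, and Lipe, hormone-sensitive lipase, rose in proliferating cells (1.70 ± 0.12) and fell in smooth muscle cultures (-0.90 ± 0.21). The split of those tested was 1 higher and 0 lower of 2 in proliferating cells, 0 and 0 of 1 in chondrocyte, 0 and 1 of 2 in osteoblast, and 1 and 1 of 2 in smooth muscle cultures. Ucp1, the uncoupling protein of brown fat and below the level set for naming, was the one called higher in smooth muscle cultures and is given after its values were seen. It had 1 count over the 4 libraries at 21% O2 and 25 to 54 counts per library at 0.5% O2 (2.43 to 3.96 CPM). Slc2a4, the insulin-responsive glucose transporter, named on the same terms, was the one lower in osteoblast cultures (-1.75 ± 0.44).

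The droplet coat and biogenesis genes split in each condition. Of 7 tested, 4 rose and 2 fell in proliferating cells, and 3 rose and 2 fell in both chondrocyte and osteoblast cultures. Smooth muscle cultures had 2 of 8 higher and 4 lower (1 and 5 by library size alone). Plin4, a perilipin that coats small droplets, went from 10.3 ± 2.50 CPM (SD, n = 4) to 158 ± 25.3 CPM (SD, n = 3) in osteoblast cultures, a log2 fold change of 3.94 ± 0.20 (edgeR quasi-likelihood, adjusted p = 1.29e-06). It rose also in proliferating cells (2.02 ± 0.33) and chondrocyte cultures (1.61 ± 0.38) and fell in smooth muscle cultures (-1.95 ± 0.42), whereas Plin2 rose in all 4. The chondrocyte call of Plin4 was lost with no filter and under the replicate block, over values from 1.08 to 1.82. Plin3 rose in the other 3 conditions by at most 0.69 and fell in smooth muscle cultures (log2 fold change -0.72), and its osteoblast call (0.34) was lost by library size alone. Fitm2, which helps droplets bud from the endoplasmic reticulum, fell in all 4, with log2 fold changes between -0.30 and -0.63, calls that were lost without some of the single libraries in all but proliferating cells.

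In the group of fatty acid uptake, binding and activation, 4 of 7 tested rose and 0 fell in proliferating cells. In chondrocyte cultures 2 of 8 rose and 2 fell, in osteoblast cultures 6 of 8 rose and 2 fell, and in smooth muscle cultures 5 of 8 rose and 2 fell. Library size alone left 4 of the 8 higher and 2 lower in osteoblast cultures, and 0 higher and 6 lower in smooth muscle cultures. Fabp5, the epidermal relative of Fabp4, rose in osteoblast cultures by 1.5 ± 0.35 (edgeR adjusted p = 0.0088) and in chondrocyte cultures by 0.96 ± 0.17, where Fabp4 fell. Slc27a3, an acyl-CoA synthetase, rose in proliferating cells by 3.47 ± 0.14, and Acsl3, which activates fatty acids at droplets, fell in osteoblast (log2 fold change -1.58) and chondrocyte cultures (-0.48) and rose in proliferating cells (0.24 ± 0.06). In smooth muscle cultures Acsl3 was 0.54 by TMM and -0.83 by library size alone.

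Triglyceride synthesis genes rose in 5 of 9 and fell in 2 of 9 in proliferating cells. In chondrocyte cultures 2 rose and 0 fell, in osteoblast cultures 3 rose and 2 fell, and in smooth muscle cultures 1 rose and 6 fell (0 and 8 by library size alone). Dgat2, the enzyme of the last step, rose in osteoblast cultures by 2.97 ± 0.25 and in proliferating cells by 1.61 ± 0.16, and fell in smooth muscle cultures (log2 fold change -1.66). Lpin1, a phosphatidate phosphatase, rose in proliferating cells (1.54 ± 0.16) and osteoblast cultures (1.33 ± 0.21). Gpam, the first enzyme of the path, fell in smooth muscle cultures (log2 fold change -1.45) and was not called in the other 3.

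Of the genes of lipolysis, 3 of 5 tested rose and 2 fell in proliferating cells. In chondrocyte cultures 1 of 6 rose and 1 fell, in osteoblast cultures 2 of 6 rose and 2 fell, and in smooth muscle cultures 1 of 5 rose and 3 fell (0 and 5 by library size alone). G0s2, an inhibitor of ATGL like Hilpda, was 3.33 ± 1.00 higher in osteoblast cultures (edgeR adjusted p = 0.0244), a call lost with no filter and without the second or the third hypoxic library, and the value ran from 2.97 to 6.28 over the alternatives. In chondrocyte cultures G0s2 was lower (-1.45 ± 0.34), a call lost with no filter and when all 28 libraries shared 1 fit. Pnpla2, which encodes ATGL, fell in osteoblast cultures (log2 fold change -0.67) and in proliferating cells (-0.39), and the osteoblast call was lost without the first or the third normoxic or the first hypoxic library. In smooth muscle cultures Pnpla2 was higher (0.99 ± 0.10), and it was -0.38 by library size alone. Mgll, monoglyceride lipase, rose in proliferating cells (2.80 ± 0.39) and fell in smooth muscle cultures (-2.95 ± 0.38).

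Of the regulators of lipoprotein lipase at most 2 were tested in a comparison. Lmf1, which folds the enzyme, rose in all 4, by 1.27 ± 0.10 in proliferating, 0.34 ± 0.08 in chondrocyte, 0.42 ± 0.09 in osteoblast and 2.50 ± 0.11 in smooth muscle cultures (1.13 by library size alone), where Lpl itself fell. The chondrocyte call was lost without the third hypoxic library. Angptl4, an inhibitor of the enzyme and a common target of both PPAR factors and HIF, was chosen for mention after its values were seen. It averaged 2.97 and 3.89 CPM in proliferating cells at 21% and 0.5% O2, and at most 0.376 CPM in chondrocyte and osteoblast groups, and it was not called for oxygen in the 3 conditions where it could be tested.

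Among apolipoproteins, lipoprotein receptors and efflux genes, 5 of 9 tested rose and 2 fell in proliferating cells, 3 of 11 rose and 6 fell in chondrocyte, 2 of 11 rose and 5 fell in osteoblast, and 5 of 11 rose and 5 fell in smooth muscle cultures. The last split was 1 higher and 8 lower by library size alone. Vldlr, a receptor that binds lipoproteins rich in Apoe, was the clearest. It went from 12.5 ± 2.51 to 158 ± 8.06 CPM in proliferating cells and from 56.9 ± 20.6 to 237 ± 28.9 CPM in osteoblast cultures (SD, n = 4 and n = 3 libraries). Its log2 fold changes were 3.66 ± 0.12, 0.99 ± 0.13, 2.07 ± 0.31 and 2.68 ± 0.15 in proliferating, chondrocyte, osteoblast and smooth muscle cultures (edgeR quasi-likelihood, adjusted p = 2.98e-09, 0.000703, 0.000902 and 2.82e-10), and the last was 1.31 by library size alone. Abca1, the cholesterol efflux pump that loads Apoe, rose in proliferating cells (2.02 ± 0.05) and fell in chondrocyte (-1.25 ± 0.17) and smooth muscle cultures (-1.67 ± 0.12). Clu, a secreted apolipoprotein, rose in chondrocyte cultures (1.68 ± 0.16) and fell in smooth muscle cultures (log2 fold change -2.04).

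Besides Plin2 and Hilpda, 6 of the 61 pathway genes tested in all 4 conditions were higher at 0.5% O2 in each, namely Cebpg, Dlk1, Lmf1, Lpin3, Lrp1 and Vldlr, and Fitm2 was lower in each. Of all genes tested in the 4 conditions 2.86% were higher and 1.6% lower in each. Cebpg, Dlk1, Lpin3 and Lrp1 were no longer called in smooth muscle cultures by library size alone, with Cebpg at -0.12 and Lrp1 at -0.44. The calls of Dlk1 in osteoblast cultures and of Lrp1 in chondrocyte cultures were each lost in 9 of 15 alternatives, and that of Lpin3 in chondrocyte cultures in 8 of 15, single libraries left out among them. Those of Fitm2 were lost in 7 of 15 in chondrocyte and 8 of 15 in osteoblast cultures.

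**Figure D4:**
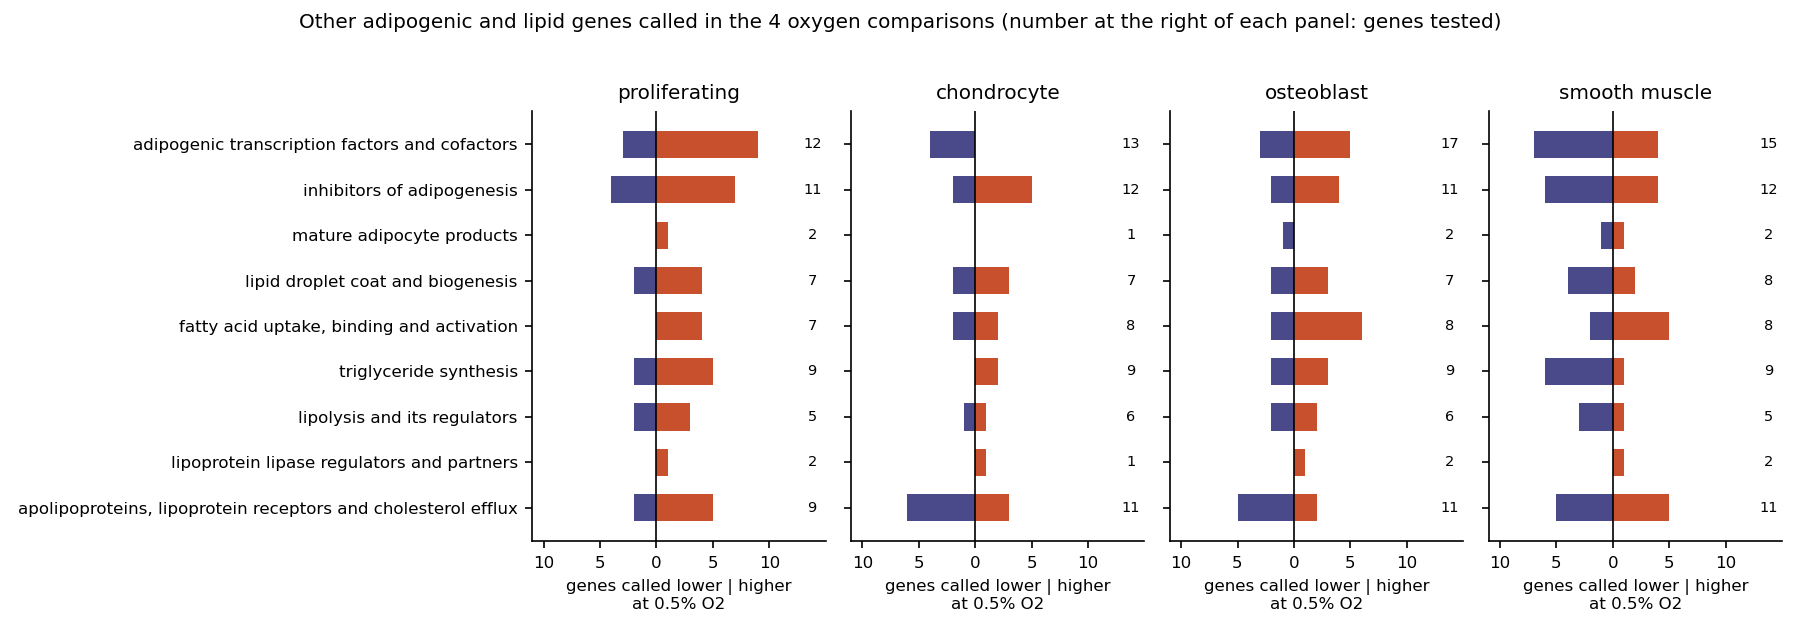
Number of pathway genes called higher (right) or lower (left) at 0.5% against 21% O2 in each role group and culture condition, with the number tested at the right edge, from edgeR with TMM scaling. Proliferating cells had 39 higher and 15 lower of 64. Library size alone turns the smooth muscle split from 24 higher and 34 lower to 5 higher and 55 lower.

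**Figure D5:**
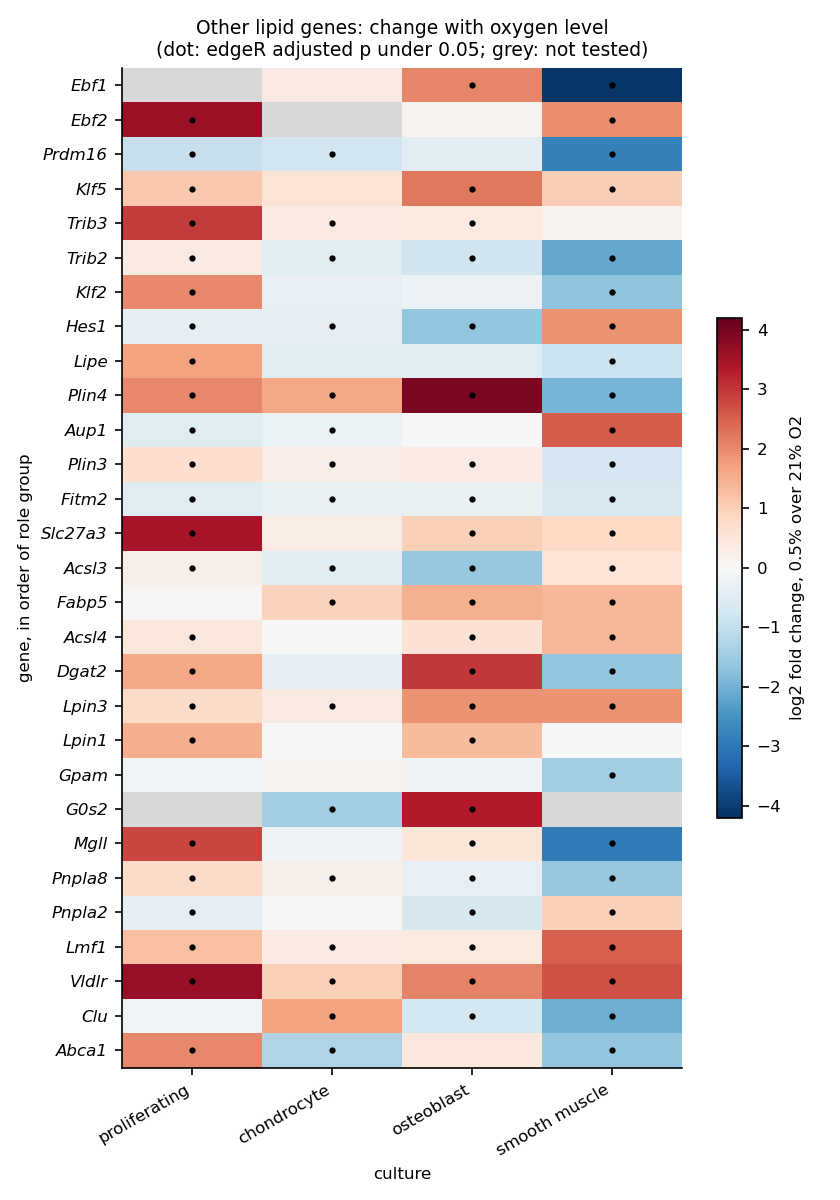
Log2 fold change (0.5% over 21% O2) of 29 pathway genes in the 4 culture conditions as a colour scale, where a dot marks a call and grey a gene not tested. Vldlr was higher in all 4, Plin4 was higher in 3 and lower in smooth muscle cultures. Acsl3, Klf5, Pnpla2 and Slc27a3 turn from higher to lower in smooth muscle cultures by library size alone.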

How the data were processed

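Polyadenylated RNA was read in 28 O9-1 libraries. The authors deposited a table of whole-number read counts per Ensembl gene, per the file headers. The submitters' processing notes list mm10, HISAT2 2.0.5, StringTie 1.3.3b and featureCounts 1.5.0-p3, without their roles. The use of strand in counting is not given in the sources used here. The authors also deposited 10 tables of log2 fold changes and p-values, per the file headers. In the authors' deposited tables all 92 log2 fold changes of members that were compared had the same sign as those computed here, with a median difference of 0.03 and a largest of 1.28. A further 70 per-library columns were not used.

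Each pair of groups was fitted with edgeR 4.0.16 under R 4.3.3 (TMM, robust glmQLFit, glmQLFTest, two-sided), keeping genes that passed filterByExpr (minimum count 10, total 15), with Benjamini-Hochberg adjustment over all genes tested. The 3 interactions used 4 groups each. SEs are the log2 fold change over the square root of the F statistic. The scripts were tested on simulated data. DESeq2 1.42.0, other scalings and filters, 1 fit of all 28 libraries, a replicate block and leaving out each library were the alternatives.

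Gene coordinates are those of GENCODE M21 (mm10) and promoter windows those of RefSeq GRCm38.p6. The members and lists were chosen with earlier results of these data known. All 10 members are named. Of 99 pathway genes (98 matched), those named reached 10 CPM in a group and were called in an oxygen comparison, at most 4 per role by size of change, and genes called in all 4 oxygen comparisons were added after their values were seen. Likeness was Pearson's r of log2(CPM + 1) over 8 group means, for genes at 5 CPM or more in a group. Some genes that these rules name are not reported here. Intervals and limits from 3 counts cover counting error only. Total counts per library ranged from 19869271 to 64693346.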

Additional observations from a re-analysis of the deposited data

Results flagged for a closer look

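Among 40 sets of 4 libraries at 21% O2, 4 held a library far from the other 3 by Dixon's ratio of gap to range, past its critical value, and chance alone gives about 1 in 20. In osteoblast cultures the fourth library was highest in Cebpa (ratio 0.952) and Plin2 (0.945) and lowest in Apod (0.946). In proliferating cells the fourth library was highest in Cebpd (0.903).

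The change from proliferating cells differed between 0.5% and 21% O2 by a tested interaction (edgeR, log2 scale, hypoxic minus normoxic change) for 16 pairs of member and lineage. In chondrocyte cultures the differences were -0.98 for Cebpb, -3.91 for Fabp4, -0.46 for Plin2, -1.05 for Hilpda, -6.44 for Apod and 1.49 for Apoe. In osteoblast cultures they were 2.91 for Pparg, 0.90 for Cebpb, 0.88 for Plin2 and -2.94 for Apod. In smooth muscle cultures they were 2.44 for Cebpb, 2.33 for Cebpd, -2.89 for Lpl, 0.94 for Plin2, -0.63 for Hilpda and -4.79 for Apod. By library size alone these were 1.10, 0.99, -4.22, -0.40, -1.97 and -6.13. All of the last set use the hypoxic libraries rich in mitochondrial ribosomal RNA, and the part of that RNA in them was not tested.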

How the results depend on the processing

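Of 122 log2 fold changes of members, 119 kept direction and side of the threshold under DESeq2, 121 with its size factors in edgeR, 119 with no filter and 106 by library size alone. Of 1067 values with 1 library left out, 1018 did. By library size alone, and then also without mitochondrial genes, the values that reversed were Hilpda in chondrocyte against proliferating cells at 21% O2 (-0.09 and -0.08), Plin2 in chondrocyte (-0.20 and -0.21) and smooth muscle cultures (-0.56 and -0.36), Fabp4 (-0.46 and -0.25) and Apoe (-0.23 and -0.02) in smooth muscle cultures at 0.5% O2, Apoe for oxygen in chondrocyte cultures (-0.05 and -0.05) and the smooth muscle interaction of Plin2 (-0.40 and -0.20). The cause was not tested. With at least 10 counts in every library, 5 members were called in osteoblast and 5 in smooth muscle cultures against proliferating cells at 21% O2, since fewer members could be tested.

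Leaving out 1 library turned the direction of 8 results that were not called. Their lowest and highest values were -0.02 and 0.47 for Cebpd in smooth muscle against proliferating cells at 21% O2, -0.13 and 0.06 for Plin2 in osteoblast against proliferating cells at 0.5% O2, -0.12 and 0.26 for Apoe for oxygen in chondrocyte cultures, and -0.64 and 0.01 for Pparg for oxygen in smooth muscle cultures. Among the interactions they were -0.57 and 2.37 for Lpl in chondrocyte, -0.17 and 0.53 for Fabp4 and -2.59 and 0.01 for Lpl in osteoblast, and -0.46 and 0.20 for Pparg in smooth muscle cultures. Genes called for oxygen in chondrocyte cultures ranged from 2091 (without the third hypoxic library) to 3359, and pathway genes from 22 to 36.

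Libraries with the same replicate number did not deviate together (correlations from -0.08 to 0.118, with 0 of 10 comparisons above 0.1 in every pair), so the numbers do not pair them. A replicate block kept 118 of the 122 results. It added Cebpd in proliferating cells (0.67) and Cebpb in chondrocyte cultures (-0.30) for oxygen, and ended the calls of Cebpa in chondrocyte (-1.28) and smooth muscle cultures (-1.88). Levels under about 1 CPM (Cebpa at 0.5% O2 and in proliferating cells, Lpl and Apod in their lowest groups) rest on few counts, which limits their folds. The order of levels by library size alone was added after seeing the data.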
